A study of Mus musculus with 6 samples.

Results

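Psmb8, Psmb9, Psmb10, Psme1, Psme2, Tap1, Tap2, Tapbp, Erap1 and Nlrc5, which supply peptides to MHC class I, were read in 6 libraries of mouse RNA. They were taken by name, with earlier results of these data known, by summing the estimated counts of all annotated transcripts of each gene. They are 10 of 35856 genes with an annotated transcript in the files and 10 of 15933 genes that passed the filter on low counts, and all 10 passed it. All 10 were higher in every library labelled Mdm2 deleted than in every library labelled vehicle. The same held for 27.7% of the 15933 genes, and 27.8% were lower in every library labelled deleted.

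The proteasome cuts cytosolic proteins into peptides, and its catalytic subunits can be replaced by inducible ones, PSMB8, PSMB9 and PSMB10, to form the immunoproteasome. PSME1 and PSME2 form a cap that opens the proteasome's gate. TAP1 and TAP2 form the pump that carries peptides into the endoplasmic reticulum, where ERAP1 trims them and tapasin, the product of Tapbp, holds an empty class I molecule at the pump until a peptide binds. NLRC5 is a transactivator of class I genes, and interferons are known to induce most of this machinery in many cell types, fibroblasts included.

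The libraries labelled Mdm2 deleted were described as Mdm2 fl/fl p53-/- cells given 4-hydroxytamoxifen (4-OHT) at 1 mM, a dose unit copied from the labels. The libraries labelled vehicle were described as cells of the same genotype given ethanol. Each group has 1 library labelled fibroblasts, from cultured ear punches of adult mice, 1 labelled lymphoma, a T cell tumour in short-term culture, and 1 labelled sarcoma. Exposure lasted 48 h for fibroblasts and sarcoma and 6 h for lymphoma, per the labels. The cells of both groups carried a retrovirus for GFP with or without CreERT2, a Cre recombinase that 4-OHT activates, and the labels do not say which virus each library's cells had. The number of animals or tumours behind each library is not given in the sources used here, nor is their age. The labelled deletion and the 4-OHT exposure cannot be told apart, since no library is labelled as cells that received 4-OHT without CreERT2.

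Libraries held 26243064 to 37517726 estimated counts. Mdm2 had 30.5, 31.1 and 31.1 CPM (counts-per-million units, scaled by the TMM method) in the libraries labelled deleted (fibroblasts, lymphoma and sarcoma, the order used for every set of 3 values below). Its level was 28.4, 28.0 and 28.5 CPM in those labelled vehicle. Mdm2 RNA was thus not lower under the deleted label (log2 fold change 0.13 ± 0.05 SE, edgeR adjusted p = 0.0539), although a gene sum does not separate transcripts with and without the deleted exons. Trp53 was detected at 24.3, 24.3 and 28.5 CPM in the libraries labelled deleted and at 26.9, 22.3 and 24.1 CPM in those labelled vehicle. A gene sum does not show whether this RNA encodes p53 protein, so it does not decide on the labelled genotype. The libraries labelled lymphoma lacked most T cell markers: Cd2, Cd247, Cd3d and Cd3e were at 0 in all 6 libraries. Of the 10 T cell markers listed, only Lck reached 1 CPM. It measured 3.68 CPM in the lymphoma library labelled deleted and 1.89 CPM in that labelled vehicle, near the other libraries of each group. The sum of 10 fibroblast markers was 13210 to 13468 CPM in the libraries labelled deleted and 20717 to 21138 CPM in those labelled vehicle. Because the marker values go against the lymphoma label and Mdm2 RNA was not lower, libraries are called by what they are labelled. A difference between cell labels is not read as one between cell types. No library repeated the counts of another of its group within sampling noise (chi-square test over genes, p printed as 0 by the software), so none was counted as a repeat deposit. The mean chi-square per gene was 8.22 to 77.2 and the median 0.827 to 1.45, and this test does not show that the libraries come from independent cultures.

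Transcript starts of 8 of the 10 genes have a window in the RefSeq promoter table (GRCm38.p6), which holds 250 bases before the start and 50 from it. Windows of 4 genes are shown because they hold a searched motif or are shared in large part by a pair of the 10 genes. Capitals mark a match, on either strand, to the interferon-response type, which is GAAA and GAAA with any 2 bases between, or to the gamma-activated type, TTCNNNGAA. No matches overlapped. Each is written 5′ to 3′ on the strand of its gene, which is the plus strand for all 4. The Erap1 window is chr13:74639603-74639902, the Psme1 window chr14:55578244-55578543, the Psmb8 window chr17:34197945-34198244 and the Tap1 window chr17:34187306-34187605.
Erap1: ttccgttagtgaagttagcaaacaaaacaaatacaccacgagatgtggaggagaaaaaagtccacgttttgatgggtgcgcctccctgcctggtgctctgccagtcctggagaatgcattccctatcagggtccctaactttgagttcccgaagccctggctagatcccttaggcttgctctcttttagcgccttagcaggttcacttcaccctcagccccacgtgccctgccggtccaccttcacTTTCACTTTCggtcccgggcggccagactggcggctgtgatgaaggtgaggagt
Psme1: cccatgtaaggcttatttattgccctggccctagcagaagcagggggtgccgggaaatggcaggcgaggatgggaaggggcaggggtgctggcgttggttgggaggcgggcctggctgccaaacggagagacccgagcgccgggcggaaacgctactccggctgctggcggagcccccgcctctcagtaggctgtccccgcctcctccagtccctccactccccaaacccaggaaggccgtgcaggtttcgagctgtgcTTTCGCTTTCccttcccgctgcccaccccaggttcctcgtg
Psmb8: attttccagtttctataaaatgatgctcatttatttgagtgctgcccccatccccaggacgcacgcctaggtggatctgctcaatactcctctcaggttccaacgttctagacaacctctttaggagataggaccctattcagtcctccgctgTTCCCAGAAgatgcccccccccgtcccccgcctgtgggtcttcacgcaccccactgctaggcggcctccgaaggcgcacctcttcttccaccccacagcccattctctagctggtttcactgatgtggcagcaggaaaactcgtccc
Tap1: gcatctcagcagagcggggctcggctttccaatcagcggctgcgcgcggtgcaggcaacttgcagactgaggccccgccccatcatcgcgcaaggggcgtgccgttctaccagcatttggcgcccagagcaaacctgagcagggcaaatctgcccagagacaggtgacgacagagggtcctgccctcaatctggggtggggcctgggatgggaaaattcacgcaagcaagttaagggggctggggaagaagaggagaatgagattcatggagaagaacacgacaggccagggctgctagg

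Erap1 and Psme1 held the interferon-response type, which 3.44% of 32851 promoter windows held. In Erap1 the match began 4 bases before the RefSeq start, and in Psme1 it began at base 10, with the start counted as base 1. Psmb8 held the gamma-activated type, with its first base 97 bases before the start, and 8.30% of windows held that type. A nuclear factor kappa B type, GGGA and TTCC with any 2 bases between, was in no window of the 8 genes and in 1.47% of all windows. Tap1 and Psmb9 lie head to head, and 275 bases of their windows are the same stretch (chr17:34187306-34187580), shown above within the Tap1 window. These matches describe letters in the windows and no more. RefSeq starts lie inside the annotated gene model of GENCODE M21 by 285 bases in Erap1, 371 in Psme1, 474 in Psmb8, 434 in Psmb9 and 3579 in Tapbp, so another start of the same gene can lie outside the window searched.

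All 10 genes rose under the deleted label (edgeR quasi-likelihood test with the cell label as a block, Benjamini-Hochberg adjusted p under 0.05), beside a background in which 25.0% of the 15933 genes tested were higher and 49.6% changed in either direction. The libraries of both groups did not overlap for any of the 10, which was so, in the same direction, for 27.7% of all genes and in the other direction for 27.8%. The median log2 fold change of the 10 genes was 1.52, with a range of 1.01 to 2.33, and that of all genes was 0.015. A call with a log2 fold change of at least 1 was made for 10 of 10 of these genes and for 4.77% of all genes. The set was not at the top of the table: its highest gene, Psmb9, ranked 235 by log2 fold change, and 759 genes rose more than its lowest, Psme1. In bulk RNA, a smaller number of expressing cells and less RNA per cell cannot be told apart.

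The 3 inducible catalytic subunits changed by similar factors from different levels. Psmb9 (ENSMUSG00000096727, chr17:34181987-34187764, minus strand), which replaces PSMB6 at the caspase-like site, measured 33.5, 33.4 and 32.5 CPM in the libraries labelled deleted, against 6.92, 6.51 and 6.29 CPM in those labelled vehicle. All libraries labelled deleted were far above all labelled vehicle, and the means were 33.1 ± 0.542 and 6.57 ± 0.316 CPM (SD, n = 3 each). Its log2 fold change, 2.33 ± 0.06 (SE), was the highest of the 10 genes (edgeR adjusted p = 7.34e-11).

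Psmb10 (ENSMUSG00000031897, chr8:105935735-105938444, minus strand) replaces PSMB7 at the trypsin-like site. Its values were 102.1, 102.6 and 102.3 CPM in the libraries labelled deleted and 22.0, 23.1 and 23.8 CPM in those labelled vehicle. The libraries labelled deleted were nearly equal, with a coefficient of variation of 0.236%, below what counting alone would give. The log2 fold change was 2.155 ± 0.045 (SE, edgeR adjusted p = 5.44e-12). Psmb8 (ENSMUSG00000024338, chr17:34197721-34201454, plus strand), which replaces PSMB5 at the chymotrypsin-like site, measured 155.8, 146.1 and 151.1 CPM in the libraries labelled deleted, against 34.7, 34.7 and 36.6 CPM in those labelled vehicle. The fibroblast-labelled library was the highest of the deleted group and the sarcoma-labelled one the highest of the vehicle group, with a wide gap between the groups. The log2 fold change was 2.095 (edgeR adjusted p = 6.85e-12).

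**Figure D1:**
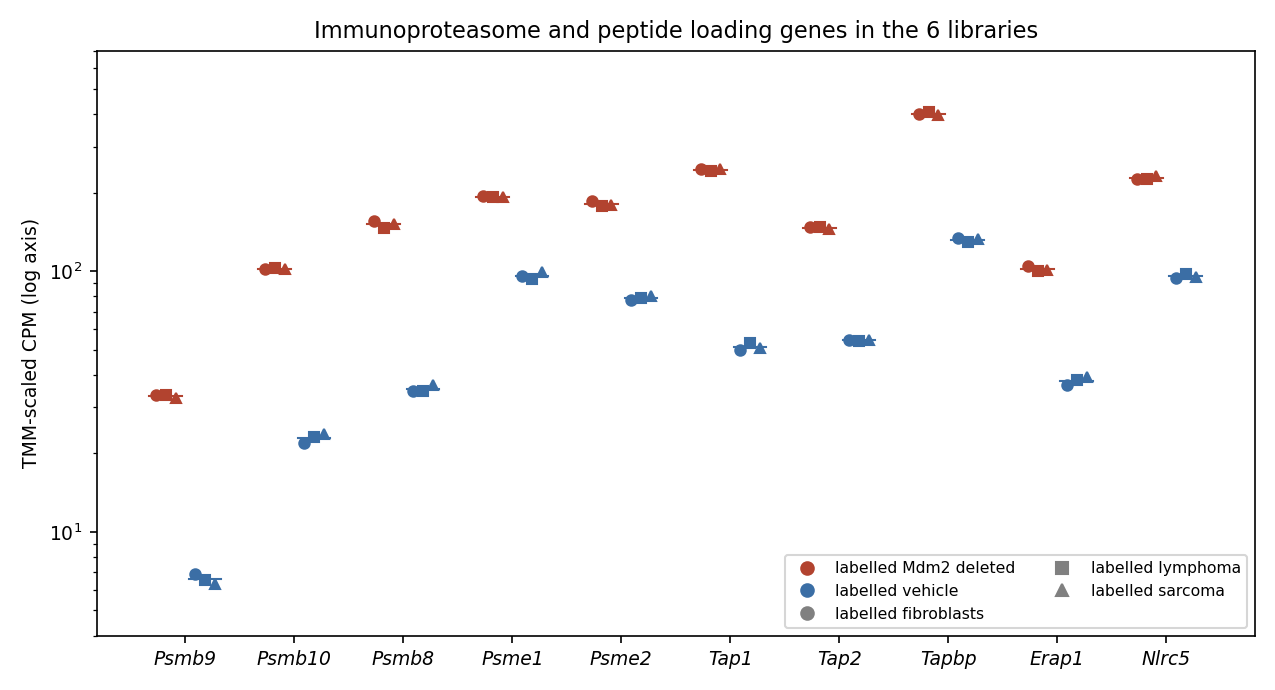
Level of each of the 10 genes (CPM, log axis) in the 3 libraries labelled Mdm2 deleted and the 3 labelled vehicle, 1 point per library with a bar at the group mean. For every gene the points of the libraries labelled deleted lie above those labelled vehicle, from 33.1 against 6.57 CPM (Psmb9, group means) to 401.9 against 132 CPM (Tapbp).

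The constitutive subunits that these 3 replace moved little. Psmb6 measured 136.4, 132.4 and 132.9 CPM in the libraries labelled deleted and 132.9, 134.4 and 146.1 CPM in those labelled vehicle, which overlap (log2 fold change -0.04, edgeR adjusted p = 0.495). Psmb7 overlapped likewise, at 143 to 152 CPM under the deleted label and 132.1 to 146.7 CPM under the vehicle label (edgeR adjusted p = 0.157, and 0.0401 with protein-coding targets only). Psmb5 measured 92.0, 86.3 and 82.4 CPM in the libraries labelled deleted and 79.1, 77.9 and 80.1 CPM in those labelled vehicle, without overlap. Its log2 fold change of 0.135 passed the threshold (edgeR adjusted p = 0.0263) but lost it under DESeq2's Wald test (adjusted p = 0.137) and under several other settings.

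Ratios within a library set each inducible subunit beside its counterpart on the scale of TPM, transcripts-per-million units, which divide by length. Psmb9 was 0.274, 0.282 and 0.273 of Psmb6 in the libraries labelled deleted and 0.0581, 0.0663 and 0.0481 of it in those labelled vehicle. Psmb10 was 0.684, 0.730 and 0.692 of Psmb7 in the libraries labelled deleted and 0.155, 0.178 and 0.165 of it in those labelled vehicle. The value of 0.0663 rests partly on a short Psmb9 target with 5.15 estimated counts, and with the main target of each gene alone the log2 difference was 2.39 in place of 2.28. Inducible RNA stayed below its counterpart for both of these pairs in all 6 libraries. Psmb8 was 1.60, 1.60 and 1.73 times Psmb5 in the libraries labelled deleted and 0.415, 0.421 and 0.432 times it in those labelled vehicle, so this pair changed order between the groups. The geometric mean ratio was 4.84-fold higher under the deleted label for Psmb9/Psmb6, 4.23-fold for Psmb10/Psmb7 and 3.89-fold for Psmb8/Psmb5. Each gave p = 0.1 in a two-sided exact permutation test over the 6 libraries, which left out the pairing by cell label. That is the smallest p this unpaired test allows, so none can reach 0.05. These are RNA ratios and do not measure the make-up of assembled particles.

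**Figure D2:**
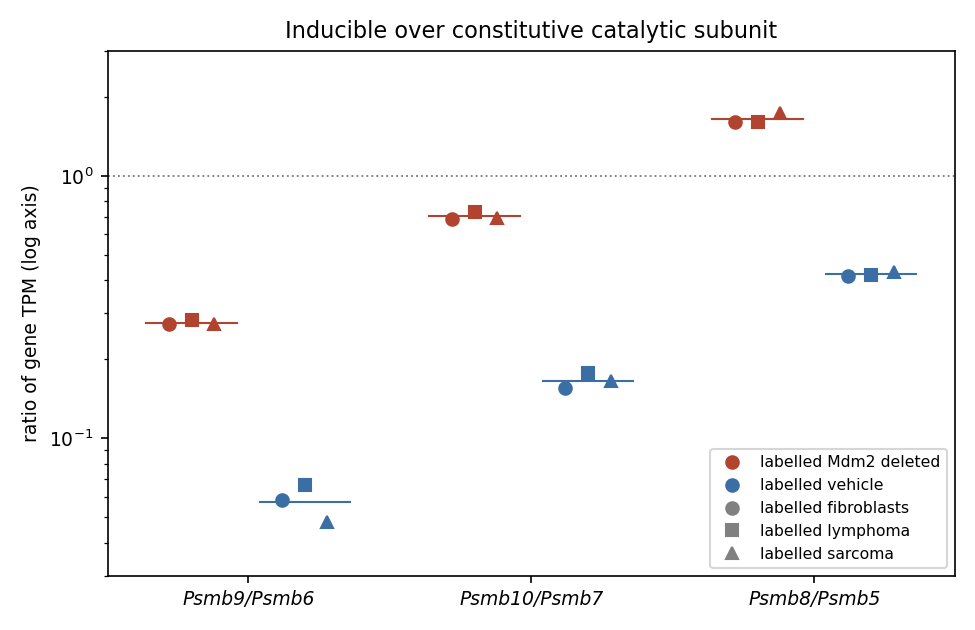
TPM of each inducible catalytic subunit divided by that of its constitutive counterpart (log axis), 1 point per library, labelled Mdm2 deleted left of labelled vehicle, with a bar at the group mean and the dotted line at equal TPM. Psmb8/Psmb5 lies above the line at 1.60 to 1.73 in the libraries labelled deleted and below it at 0.415 to 0.432 in those labelled vehicle, and the other ratios lie below it in all 6 libraries.

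Of the cap subunits, Psme1 had the lowest fold change of the 10 genes and Psme2 overlapped Nlrc5. Psme1 (ENSMUSG00000022216, chr14:55578123-55581529, plus strand), the alpha subunit of the cap, measured 193.9, 192 and 191.9 CPM in the libraries labelled deleted, against 95.6, 93.0 and 98.9 CPM in those labelled vehicle. The gap between the groups was far wider than the spread within either of them. The log2 fold change was 1.01 ± 0.04 (SE, edgeR adjusted p = 4.35e-09).

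Psme2 (ENSMUSG00000079197, chr14:55587441-55591113, minus strand), the beta subunit, measured 186.5, 177.8 and 178.8 CPM in the libraries labelled deleted and 77.6, 78.7 and 80.1 CPM in those labelled vehicle. The fibroblast-labelled library was the highest of the deleted group, and the groups did not overlap (log2 fold change 1.20 ± 0.04 SE, edgeR adjusted p = 1.06e-09). A near-identical copy, Psme2b on chromosome 11, measured 9.09, 9.55 and 10.6 CPM in the libraries labelled deleted and 0.843, 0.878 and 0.823 CPM in those labelled vehicle. How the estimates split reads between the copies is uncertain, so the sum is the safer value: it averaged 190.8 ± 4.31 CPM under the deleted label and 79.7 ± 1.22 CPM under the vehicle label (SD, n = 3 each), a log2 ratio of 1.26. On the TPM of the main transcript, Psme1 was 0.985, 1.02 and 1.02 times Psme2 in the libraries labelled deleted and 1.17, 1.12 and 1.17 times it in those labelled vehicle.

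The peptide pump changed unequally. Tap1 (ENSMUSG00000037321, chr17:34187553-34197225, plus strand) measured 245.5, 242.8 and 245.7 CPM in the libraries labelled deleted, against 49.7, 53.2 and 50.9 CPM in those labelled vehicle. Its libraries labelled deleted lay close to each other and far above every library labelled vehicle. The log2 fold change was 2.255 ± 0.045 (SE, edgeR adjusted p = 4.22e-12), between those of Psmb9 (2.33) and Psmb10 (2.155). Its range over the labelled pairs overlapped that of each. Tap1 shares 275 bases of its promoter window with Psmb9, while Psmb10 lies on chromosome 8. Any part of the shared stretch in the change was not tested.

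Tap2 (ENSMUSG00000024339, chr17:34203527-34216321, plus strand), the other chain of the pump, measured 147.7, 147.1 and 145 CPM in the libraries labelled deleted and 54.6, 53.8 and 54.7 CPM in those labelled vehicle. It was the steadiest gene of the vehicle group and did not overlap between groups (log2 fold change 1.43 ± 0.04 SE, edgeR adjusted p = 1.12e-10). On the TPM of the main transcript, Tap1 was 1.67, 1.65 and 1.68 times Tap2 in the libraries labelled deleted and 0.901, 0.974 and 0.945 times it in those labelled vehicle. Gene TPM was not used for Tap2, because the main transcript, Tap2-201, held 94.4% to 96.1% of the gene's counts but only 36.7% to 56.6% of its TPM. The other TPM lay in 2 short targets, of 273 and 74 bases, the shorter with 0 to 17.4 estimated counts.

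Tapbp (ENSMUSG00000024308, chr17:33915899-33929292, plus strand) had the most counts of the 10 genes, at 400.3, 409 and 396.4 CPM in the libraries labelled deleted and 133.4, 129.3 and 133.3 CPM in those labelled vehicle. The lymphoma-labelled library was the highest of the deleted group and the lowest of the vehicle group, with small differences within a group beside the gap between groups. The log2 fold change was 1.61 ± 0.04 (SE, edgeR adjusted p = 6.05e-11).

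Erap1 (ENSMUSG00000021583, chr13:74639568-74693201, plus strand), the trimming enzyme, measured 104.4, 100.2 and 100.6 CPM in the libraries labelled deleted and 36.6, 38.1 and 39.4 CPM in those labelled vehicle. The fibroblast-labelled library was the highest under the deleted label and the lowest under the vehicle label, so this pair had the widest gap. The log2 fold change was 1.42 ± 0.05 (SE, edgeR adjusted p = 3.48e-10).

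Nlrc5 (ENSMUSG00000074151, chr8:94434356-94527272, plus strand) measured 225.7, 225.2 and 231 CPM in the libraries labelled deleted, against 94.4, 97.3 and 95.3 CPM in those labelled vehicle. The groups did not overlap, and the log2 fold change was 1.25 ± 0.04 (SE, edgeR adjusted p = 5.99e-10). The full-length coding transcript, Nlrc5-201, of 5748 bases, held 92.4% to 92.9% of the counts but 29.0% to 32.2% of the gene's TPM. The rest was largely the short target Nlrc5-202, of 417 bases, at 27.6, 27.6 and 27.7 TPM in the libraries labelled deleted and 11.5, 11.2 and 12.1 TPM in those labelled vehicle. Both targets were higher under the deleted label: Nlrc5-201 averaged 16.5 ± 0.914 TPM there and 6.80 ± 0.0854 TPM under the vehicle label (SD, n = 3 each).

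Set in order of log2 fold change, Psmb9, Tap1, Psmb10 and Psmb8 came first, followed by Tapbp, by Tap2 and Erap1, by Nlrc5 and Psme2, and by Psme1. The ranges of the 3 labelled pairs did not overlap between these successive blocks. Neighbours in rank within a block overlapped, so their order is not beyond the spread. In the first block, Psmb9 did not overlap Psmb10 or Psmb8, nor Tap1 Psmb8. In level per length (TPM of the main transcript), Psme1, Psme2 and Tapbp led under the deleted label, at 144.5 ± 7.88, 143.3 ± 6.85 and 142.7 ± 10.8 TPM, and did not differ beyond their spread. Nlrc5 (16.5 TPM) and Erap1 (16.9 ± 0.844 TPM) were lowest there. Under the vehicle label Psme1 led, at 70.3 ± 2.31 TPM. Psmb9, at 5.69 ± 0.354 TPM, and Erap1, at 6.20 ± 0.20 TPM, were lowest there and overlapped (SD, n = 3 in each case).

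Within labelled pairs, where no test is possible, all 10 genes were at least 2-fold higher in the pair labelled fibroblasts, 10 in that labelled lymphoma and 9 in that labelled sarcoma. Of all genes averaging 5 CPM or more, 2.90%, 2.89% and 2.94% rose this much in those pairs, and 2.46% did so in all 3. The exception was Psme1 in the pair labelled sarcoma, with a ratio of 1.94 (95% interval 1.86 to 2.02, which covers counting error only). The median log2 ratio of the 10 genes was 1.55 in the pair labelled fibroblasts, 1.56 in that labelled lymphoma and 1.49 in that labelled sarcoma, while that of all genes lay between -0.013 and 0.002. The pair labelled lymphoma was exposed for 6 h and the others for 48 h. For Psmb9 the ratio was 4.84 (4.15 to 5.67) in the pair labelled fibroblasts, 5.13 (4.38 to 6.02) in that labelled lymphoma and 5.17 (4.47 to 5.99) in that labelled sarcoma.

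**Figure D3:**
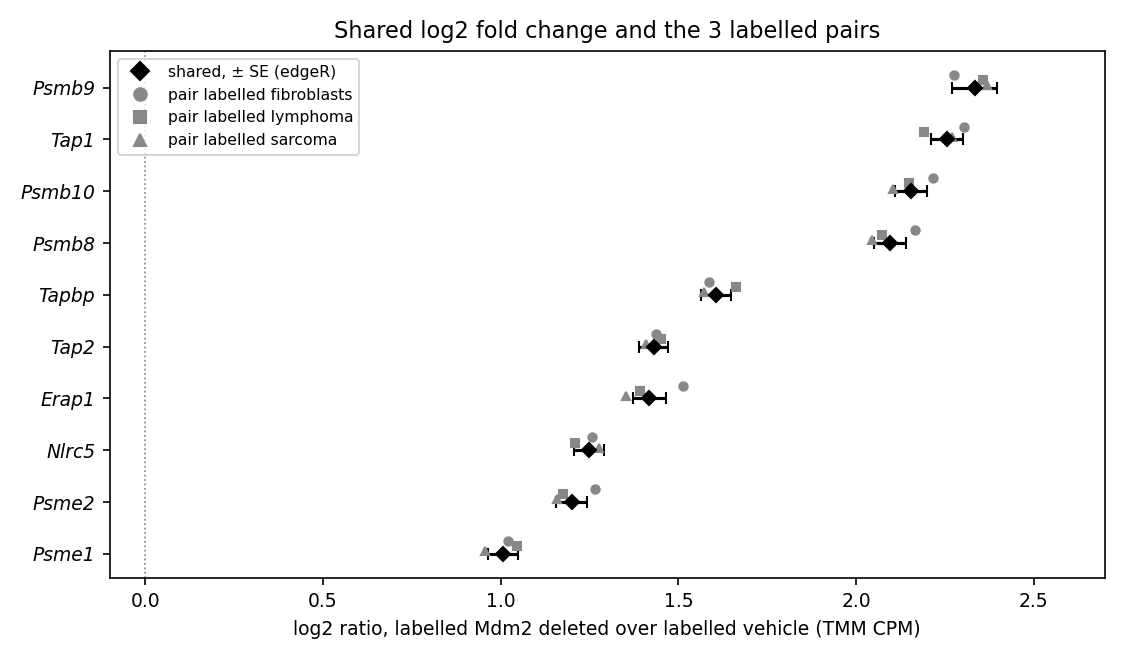
Log2 fold change, labelled Mdm2 deleted over labelled vehicle, of each gene in the order of the shared estimate, with that estimate and its standard error and 1 point for each labelled pair. Estimates run from 2.33 (Psmb9) to 1.01 (Psme1), and the pair points of a gene stay close to its estimate.

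Libraries of 1 group, labelled as different cell types, were close to each other. The median coefficient of variation of the 10 genes was 1.52% under the deleted label and 3.11% under the vehicle label, and over 10857 genes it was 3.82% and 4.86%. Relative to the variance that counting alone gives, the 10 genes' variance had a median of 0.828 under the deleted label and 1.16 under the vehicle label. Over 9599 genes these medians were 1.34 and 2.47. The edgeR standard errors and p-values above rest on the spread left after the cell-label block, with 2 residual degrees of freedom. They also draw on a prior of 9.23 degrees of freedom taken over all genes. They therefore do not measure each gene's own spread within a group. The sources used here do not say that the spread among libraries is one between independent cultures.

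A wider list of antigen processing genes, without the 10, held 48 symbols, of which 47 were matched and tested. Of these, 26 were higher and 5 lower under the deleted label, with a median log2 fold change of 0.14, against 25.0% higher and 24.6% lower and a median of 0.015 over all genes. The count of higher genes was 12 with limma on log2(TPM + 1) and 15 without the lymphoma library labelled vehicle, where 13.9% and 18.9% of all genes tested were higher. The count of lower genes was 2 with that limma fit (9.28% of all genes), 8 without the fibroblast library labelled deleted (24.5%) or that labelled vehicle (24.6%), and 3 without the lymphoma library labelled deleted (19.7%). Of the 14 other subunits of the core particle, 7 were higher and none lower, by a log2 fold change of at most 0.20. Of the remaining 33 genes, 19 were higher and 5 lower.

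Ube2l6, a conjugating enzyme for the ubiquitin-like protein ISG15, rose by 1.85 on the log2 scale (edgeR adjusted p = 3.6e-11). Irf1, a transcription factor of interferon-induced genes, rose by 1.61, with 183.4 ± 2.02 CPM under the deleted label and 60.1 ± 1.41 CPM under the vehicle label (SD, n = 3 each). Tapbpl, a peptide editor related to tapasin, rose by 1.51. Class I genes, which the 10 genes serve, were named after their values were seen. They rose too: H2-K1 by 1.085, H2-D1 by 0.97 and B2m, their shared light chain, by 0.98. How reads were split between near-identical class I genes is uncertain.

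The 4 largest falls were small beside these. Rfxank, a subunit of the RFX complex that binds MHC promoters, had 5.96 ± 0.7996 CPM under the deleted label and 9.69 ± 1.17 CPM under the vehicle label (log2 fold change -0.70, edgeR adjusted p = 0.000298). Another RFX subunit, Rfx5, was higher (0.58, edgeR adjusted p = 3.4e-06), and Rfxap did not pass the test (edgeR adjusted p = 0.613). Nfyb, a subunit of the CCAAT-binding factor NF-Y, fell by 0.39. Sec61g, part of the channel of the endoplasmic reticulum, fell by 0.25 and Psme4, another proteasome cap, by 0.13.

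Neighbouring genes moved in both directions. Within 25 kb of the 10, 21 other genes were tested, of which 10 were higher, 5 lower and 6 not called, beside 25.0% higher and 24.6% lower over all genes. Their median log2 fold change was 0.16, against 0.015 over all genes. On chromosome 17, Psmb9, Tap1, Psmb8 and Tap2 lie side by side with no other tested gene within 25 kb. Near Psme2 on chromosome 14, Rnf31, a subunit of a ubiquitin ligase complex, rose by 0.935 (edgeR adjusted p = 8.4e-09) and Irf9, the DNA-binding subunit of an interferon-activated complex, by 1.08 (edgeR adjusted p = 3.26e-09). Emc9, between Psme1 and Psme2, had 3.05 ± 0.333 CPM under the deleted label and 4.57 ± 0.761 CPM under the vehicle label (log2 fold change -0.575, edgeR adjusted p = 0.00267). Next to Tapbp, Daxx, a histone chaperone, rose by 1.75, while Zbtb22, which overlaps the Tapbp gene model, fell by 0.23. Overlaps of annotated genes also exist for Psmb9 with Tap1, Psme1 with Emc9, Erap1 with Cast and Nlrc5 with 9330175E14Rik. The strand setting of the quantification is not given in the sources used here, so reads in such stretches may be shared.

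**Figure D4:**
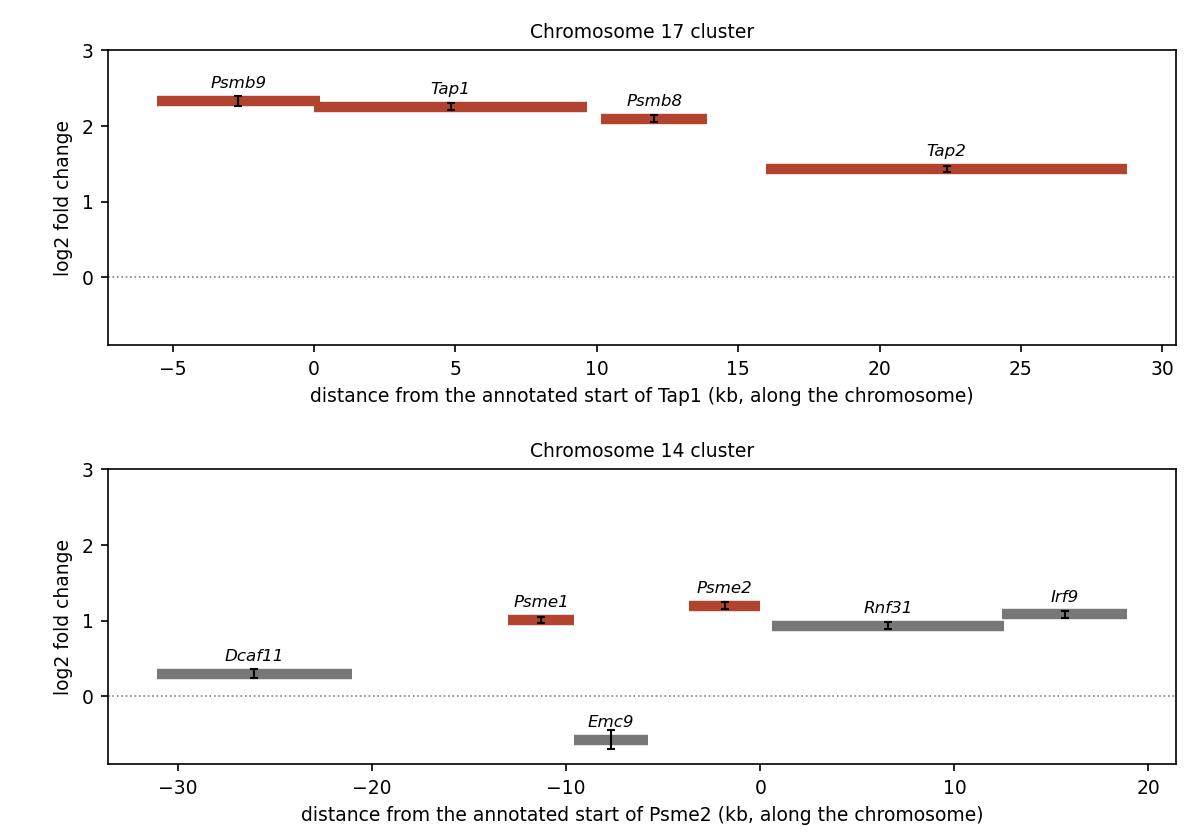
Log2 fold change, labelled Mdm2 deleted over labelled vehicle, with its standard error, drawn at each gene's distance in kb from the start of Tap1 (upper panel) or Psme2 (lower panel), with bars as long as the gene models, red for the 10 genes and grey for other tested genes within 25 kb. In the upper panel all genes are of the set and lie between 1.43 (Tap2) and 2.33 (Psmb9), and in the lower panel Emc9, at -0.575, lies between Psme1 and Psme2.

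Across the 6 libraries, the genes whose log2 CPM followed the mean of the 10 most closely were Irf7, Trex1, Irgm1, Ifi47 and Ifit2, with Pearson correlations of 0.99992 to 0.99995. Irf7, an interferon-induced transcription factor, averaged 191.8 ± 1.76 CPM under the deleted label and 19.4 ± 0.345 CPM under the vehicle label (SD, n = 3 each). Trex1, a DNA exonuclease, was nearest to the set in size of change, with 62.4 ± 0.944 CPM under the deleted label and 12.9 ± 0.345 CPM under the vehicle label. The libraries form 2 clusters, 1 per group, and 584 of 10847 genes had a correlation over 0.99, so these values describe a step between groups that many genes share.

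Markers of immune cells, which hold much of this machinery, were low. The sum of 8 leukocyte markers was 0.902 to 2.02 CPM in the libraries labelled deleted and 0.850 to 1.02 CPM in those labelled vehicle, and 0 of the 8 reached 1 CPM in any library. The sum of 10 T cell markers was 3.72 to 4.23 CPM in the libraries labelled deleted and 1.96 to 2.23 CPM in those labelled vehicle, nearly all of it Lck. The sum of 8 macrophage and dendritic cell markers was 8.27 to 9.83 CPM in the libraries labelled deleted and 4.93 to 5.72 CPM in those labelled vehicle, with Cd68 the only one to reach 1 CPM. The sum of 4 endothelial markers was 0.916 to 1.37 CPM under the deleted label and 0.176 to 0.292 CPM under the vehicle label, and that of 4 B cell markers was 0.2035 to 0.413 CPM under the deleted label and 0.0351 to 0.101 CPM under the vehicle label. The T cell, macrophage, endothelial and B cell sums did not overlap between groups and were higher under the deleted label together with the 10 genes. Of all 15933 genes tested, 27.7% were likewise higher without overlap. Of the endothelial and B cell markers, 0 reached 1 CPM in any library, so their sums lie near the floor. The sum of 5 skeletal muscle markers was also higher, at 0.2035 to 0.413 CPM under the deleted label and 0.101 to 0.159 CPM under the vehicle label. The sum of 6 keratinocyte markers went the other way, at 1.02 to 1.59 CPM under the deleted label and 1.96 to 2.89 CPM under the vehicle label. The part of any of these marker sums in the result was not tested.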

How the data were processed

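Per the labels' protocols, total RNA was extracted with TRIzol, depleted of ribosomal RNA and made into stranded libraries, 1 per cell label and group (6 in all). The authors deposited estimated counts and TPM per transcript, for which the submitters' processing notes name kallisto 0.43.0 and the build GRCm38. Neither its strand option nor its transcript set is given in the sources used here. Of 76055 targets, 75049 were joined by identifier to GENCODE M21 and the other 1006, with 0.393% to 0.410% of counts, were left out. Target length equalled the annotated coding length for 94.2% of 51165 protein-coding targets. TPM are summed over the targets of a gene unless the main transcript is named.

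Estimated counts were summed per gene, rounded to whole numbers and tested with edgeR 4.0.16 (R 4.3.3): TMM scaling, filterByExpr by group, quasi-likelihood test with cell label as a block, Benjamini-Hochberg adjustment over 15933 genes, threshold 0.05. Residual degrees of freedom were 2 (prior 9.23). This step was also run on simulated counts with 200 genes changed and no cell-label effect. Far more genes were called in the real data, so that run does not show how the test behaves on them. Pair ratios are CPM ratios with 95% intervals for counting error. Deviations from group means correlated by 0.0324 (fibroblasts), 0.139 (lymphoma) and 0.141 (sarcoma) within labelled pairs; the block comes from the shared cell label. Alternatives were DESeq2 1.42.0, limma 3.58.1 on log2(TPM + 1) or log2(TPM + 0.1), other filters, coding targets only, the main target only, and libraries or pairs left out. Counts per library were 26243064 to 37517726.

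The 10 genes and the lists were chosen with earlier results of these data known. Named genes are the 10, the counterparts Psmb5, Psmb6 and Psmb7, Mdm2, Trp53, the 4 largest rises and falls of the antigen processing list, and the 5 genes closest in pattern. A result for 1 gene that this rule names is not reported here. H2-K1, H2-D1, B2m, Rfx5, Rfxap, Psme2b and the neighbours were named after their values were seen.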

Additional observations from a re-analysis of the deposited data

How the results depend on the processing

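Of the 10 genes, 10 were higher under each of 17 of the 18 alternatives, beside 13.7% to 30.0% of all genes tested. Under limma on log2(TPM + 1) without a filter 9 were higher, beside 4.73% of all genes. There Tap2 kept its direction (log2 fold change 1.47, limma adjusted p = 0.0515). Across alternatives the log2 fold change lay between 2.09 and 2.35 for Psmb9 and between 0.97 and 1.03 for Psme1. The antigen processing list had 26 higher and 5 lower genes, beside 25.0% higher and 24.6% lower of all genes tested. It had 12 and 2 with limma on log2(TPM + 1), beside 13.9% and 9.28% of all genes. With limma on log2(TPM + 0.1) it had 11 and 1, beside 13.7% and 8.72%. With limma on log2(TPM + 1) without a filter it had 9 and 0, beside 4.73% and 2.58%. The cause was not tested. With edgeR and no filter on low counts the list had 22 and 5, beside 16.4% and 18.3% of all genes. With a library or pair left out it had 15 to 26 higher and 3 to 8 lower. The 15 came without the lymphoma library labelled vehicle, and the 8 without either fibroblast library or their pair. The 3 came without the lymphoma pair or its library labelled deleted. Of all genes, 18.88% to 22.15% were higher and 19.68% to 24.71% lower in those fits. Psmb6, never called, had a log2 fold change of -0.04, and -0.104 to 0.008 with a library or pair left out, above 0 without the sarcoma pair or either of its libraries (lowest of these 0.007). Without the cell label, which serves as the replicate block, edgeR called 10 of the 10 genes and 24 higher and 4 lower genes of the list. Of all genes, 23.5% were higher and 23.7% lower in that fit. Among all calls, 50.4% were higher in the edgeR fit and 60.0% to 64.7% with limma on TPM. The fit with main targets only was chosen after seeing the data. The 10 genes had 193 to 11801 counts in a library, so counting error limits Psmb9 most.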
